A study of Mus musculus with 4 samples.

Results

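The constitutive proteasome genes were examined in the liver of 4 ABCA1-transgenic mice, as 35 of the 12393 genes measured. They were chosen by symbol, as every gene named Psma, Psmb, Psmc or Psmd with a number that had a probe set of its own, leaving out the interferon-inducible Psmb8, Psmb9 and Psmb10. By role they fall into 8 alpha and 7 beta genes of the core, 6 ATPase genes, 3 non-ATPase genes of the base, 8 genes of the lid, and 3 genes (Psmd5, Psmd9 and Psmd10) that carry proteasome names but encode assembly chaperones of the base and are no part of the finished particle. Psma8 also stands apart, since it encodes a testis form of an alpha subunit. The 35 genes had 64 probe sets: 18 had 1 probe set and 17 had 2 or more, and each gene was read from its brightest probe set. In RefSeq the genes lie on 16 chromosomes.

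All 4 samples were total RNA from the liver of male C57BL/6 mice carrying the ABCA1 transgene, killed at 5 to 6 months of age on the NIH36 diet, with 1 biotin-labelled array per mouse. The series title places the transgene on an LDL receptor -/- background, whereas the sample descriptions give LDL receptor +/-, and the labels do not settle which holds. The promoter and the species of the transgene are not named. Wild-type arrays, which the design mentions, were not analysed here, so every comparison below is between transgenic mice, called mouse 1 to mouse 4 after the replicate number, and none bears on the effect of ABCA1. The labels call the samples biological replicates without saying more of the animals, and differences between arrays may be technical.

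The proteasome is the main protease of the cytosol and nucleus. Its core is a barrel of stacked rings in which the alpha subunits form the outer gates and 3 of the beta subunits, Psmb6, Psmb7 and Psmb5, cut the chain, and its cap binds ubiquitin-tagged proteins, removes the ubiquitin, unfolds the chain with a ring of ATPases and feeds it into the core. In mammals the transcription factor NRF1, encoded by Nfe2l1, is known to raise the genes of core and cap together when proteasome activity is short, through antioxidant response elements. In inflamed tissue interferon induces Psmb9, Psmb10 and Psmb8, which take the places of Psmb6, Psmb7 and Psmb5.

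RefSeq held a promoter window on GRCm38.p6, from 250 bases before to 50 after a gene start, for 28 of the 35 genes (there was none for Psma8, Psmb1, Psmb2, Psmb7, Psmc3, Psmd3 and Psmd7). The windows were searched on both strands for the element of the Nfe2l1 protein and for sites of general promoter factors. The first 3 stretches are shown because they hold the core of the antioxidant response element on the gene's own strand, with its first base 47, 9 and 31 bases ahead of the window's start for Psmb5, Psmb6 and Psmd9. The other stretches hold the site of nuclear respiratory factor 1, an unrelated factor that shares the abbreviation NRF1, 61 bases ahead of the window's start for Psma4 and, in its reverse complement, 49 bases ahead of it for Psmc5. The start used for the window lies 33 bases inside the RefSeq range of Psmb6 and 78 bases inside that of Psma4, so in these genes the motif lies within the range; for Psmb5, Psmd9 and Psmc5 the starts coincide. Capitals mark the motif, and each stretch reads 5′ to 3′ on the gene's strand.
Psmb5, chr14:54618009-54618067, minus strand: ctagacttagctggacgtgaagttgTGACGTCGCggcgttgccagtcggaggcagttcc
Psmb6, chr11:70525323-70525356, plus strand: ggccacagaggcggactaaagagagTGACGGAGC
Psmd9, chr5:123228134-123228189, plus strand: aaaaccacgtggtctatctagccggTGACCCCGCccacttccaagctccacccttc
Psma4, chr9:54950773-54950832, plus strand: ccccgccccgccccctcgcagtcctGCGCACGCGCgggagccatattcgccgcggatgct
Psmc5, chr11:106256111-106256170, plus strand: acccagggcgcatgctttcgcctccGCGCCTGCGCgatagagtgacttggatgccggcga

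Of 28 member genes, 5 held the antioxidant response element core TGACNNNGC (Psmb5, Psmb6, Psmc6, Psmd9 and Psmd12), which is 17.9% against 14% of the 27025 genes with a window. The nuclear respiratory factor 1 site, GCGCA and GCGC with 1 base of any kind between them, was in 6 (Psma2, Psma3, Psma4, Psmc4, Psmc5 and Psmd14), or 21.4% against 5.19% of genes. The GC box GGGCGG was in 18 (64.3% against 38.2%), the CCAAT box (its own letters) in 11 (39.3% against 41.1%), and the heat shock element, GAA, TTC and GAA with gaps of 2 bases, in 0 (0.662% of genes). None of these strings contains another. The shares are descriptions of letters in a window, and the windows were not matched for base composition. Members with an antioxidant response element core had a median level 0.17 log2 above the other 3 mice in mouse 1, and the 23 members without one 0.11 above. In mouse 3 the medians were -0.16 for members with it and -0.08 for members without it. The split in mouse 1 was wider for the CCAAT box, at 0.20 in the 11 members with it and 0.09 in the 17 without. With and without the nuclear respiratory factor 1 site the mouse 1 medians were 0.15 and 0.12. For the GC box they were 0.11 and 0.13. None of these differences was tested.

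On the brightest probe set of each gene, levels of the proteasome genes were close between the livers. The highest mouse exceeded the lowest by a median of 1.21-fold over the 35 genes, with a range from 1.05-fold (Psmd6) to 1.97-fold (Psma5). The median SD between mice was 0.12 log2 for proteasome genes and 0.26 log2 for all genes measured. Because spread falls as level rises, each SD was divided by the prior SD that limma fitted at the same level, called the relative spread. Its median was 0.79 for proteasome genes and 0.96 for all genes, and 27 of 35 members (77.1%) lay below 1, against 53.3% of all genes. Among genes with a mean log2 of at least 10 the median was 0.92, and among the 32 members at that level 0.71. The member median was nearer 1 without probe sets ending in _s_at or _x_at and with means over probe sets, as given at the end. In whole liver, fewer cells of a type and less RNA per cell cannot be told apart.

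**Figure D1:**
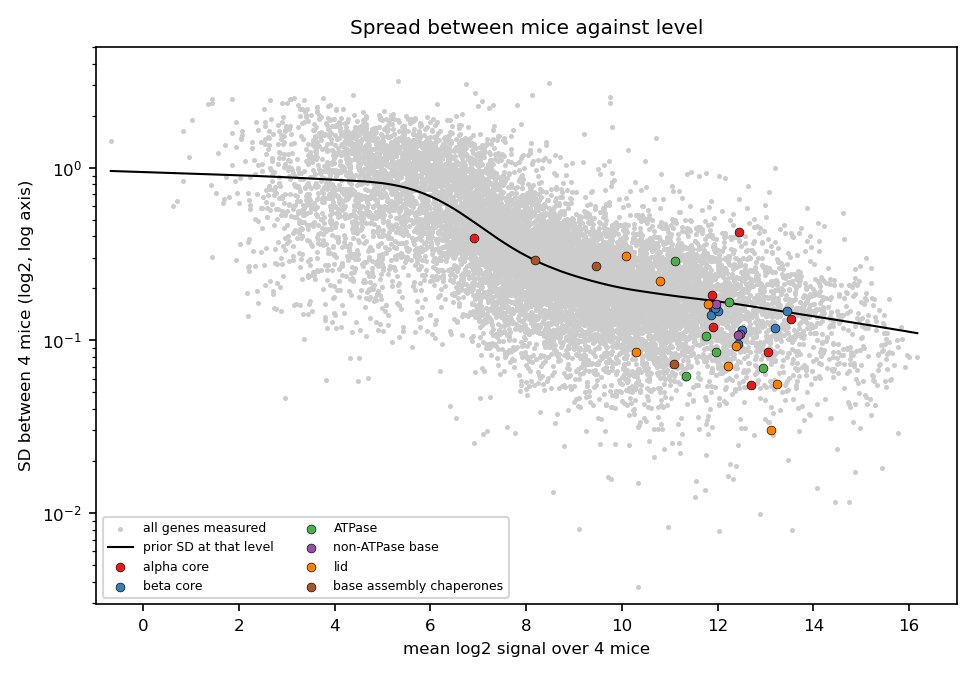
The SD between 4 mice (vertical, log2 units on a log axis) is plotted against the mean log2 signal (horizontal) for 12393 genes, the brightest probe set of each, in grey. The line is the prior SD fitted by limma, coloured points are the 35 proteasome genes by subgroup, and 27 of them lie below the line while Psma5 is the highest above it.

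No proteasome gene passed a test for more spread between mice than its level predicts. In limma's test of excess spread (Benjamini-Hochberg adjustment across the 22626 probe sets tested), 0 of 35 members passed at 0.05, as did 0% of all probe sets, and the lowest adjusted p of a member was 0.977. At an unadjusted p under 0.05 there was 1 member, Psma5, against 3.71% of all probe sets. A second test asked whether the probe sets of 1 gene share a difference between mice beyond their disagreement. Of 17 members with 2 or more probe sets 0 passed after adjustment over 4956 genes, where 0.343% passed, and 3 (Psma6, Psmb1 and Psmb4) had an unadjusted p under 0.05, where 8.92% of genes did. The comparisons by mouse that follow are descriptions of single livers, with no test.

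Mouse 1 had the higher level of most proteasome genes. It was higher than the mean of the other 3 mice in 28 of 35 members, against 42.8% of all genes. Mouse 4 was higher than the others in 7 of 35 members, against 42.9% of all genes, and mouse 3 in 11 of 35, against 59.8%. Mouse 2 was higher in 18 of 35, against 57.9%. The shifts were small, with a median over members of 0.11, 0.01, -0.08 and -0.09 log2 in mice 1 to 4, against -0.05, 0.06, 0.09 and -0.06 over all genes.

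The same order of the livers appears in the extremes of each gene. Mouse 1 held the highest level of 20 members (17.4% of all genes) and mouse 2 that of 7 (29.8%), while mouse 3 held 5 (33.5%) and mouse 4 held 3 (19.3%). Mouse 1 held the lowest level of 2 members (28.9% of all genes) and mouse 2 that of 6 (20%), while mouse 3 held 11 (20.4%) and mouse 4 held 16 (30.7%). Mouse 1 was thus the lowest in few members, and mice 3 and 4 were the highest in few. Of the 32 members with a mean log2 of at least 10, 26 were higher in mouse 1 than in the other mice (45.5% of the 3742 genes at that level) and 17 in mouse 2 (50.2%). Mouse 3 was higher in 10 (50.7%) and mouse 4 in 5 (54.5%).

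The place of mouse 4 depended on how arrays were scaled. Shifting the arrays to the same median signal moved the median of all genes in mouse 4 to 0.08, and with it the proteasome median to 0.05 with 24 of 35 members higher. In the same scaling mouse 1 had 31 of 35 members higher (median 0.18), mouse 2 had 10 (median -0.08) and mouse 3 had 5 (median -0.20). After quantile normalization the medians were 0.10, 0.02, -0.05 and -0.12 in mice 1 to 4. Relative to the median of all genes, proteasome genes were 0.16 log2 higher in mouse 1 and 0.17 lower in mouse 3 as deposited, and 0.11 higher and 0.07 lower after quantile normalization. A shift to the same median leaves those 2 differences as they are. In mouse 4 the difference from all genes was -0.03 log2 as deposited and -0.12 after quantile normalization, where it was further below than mouse 3. Relative to all genes, mouse 1 was thus high and mouse 3 low in each of the 3 scalings. Mice 2 and 4 also lay below all genes in each, mouse 2 at -0.05 as deposited and -4e-04 after quantile normalization. Without mouse 1 the difference was 0.04 in mice 2 and 4 and -0.10 in mouse 3. With means over members in place of medians, it was 0.04 in mouse 4. All genes include many of lower level. As deposited, the 3742 genes with a mean log2 of at least 10 had medians of -0.023, 0.001, 0.004 and 0.021 in mice 1 to 4. The 32 members at that level had 0.112, 0.009, -0.081 and -0.088. Against genes of that level mouse 1 was again high, mouse 4 lay further below than mouse 3, and mouse 2 did not lie below.

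**Figure D2:**
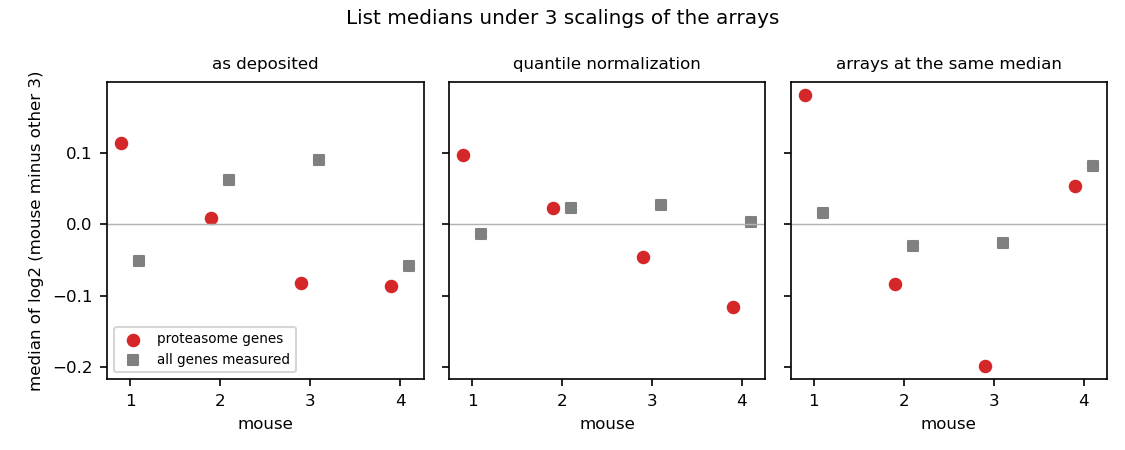
Median over genes of the log2 signal in 1 mouse minus the mean of the other 3 (vertical) for mice 1 to 4 (horizontal), under 3 scalings of the arrays. Red circles are the 35 proteasome genes and grey squares all 12393 genes; the red circle of mouse 1 lies above the grey square and that of mouse 3 below it in each panel, while the circle of mouse 4 lies below 0 in the first 2 panels and above it in the third.

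Other features of the arrays moved with the same mice, and their part in these values was not tested. In mouse 1 the 3-prime over 5-prime log2 ratio of the Gapdh control, which rises as RNA is shortened, was 1.67, against 1.94, 2.03 and 2.00 in mice 2 to 4, and the 18S control signal was 9.95 log2, against 8.98, 8.75 and 8.79. The same ratio of the Actb control was 1.82, 1.88, 2.12 and 2.02 in mice 1 to 4, lower in mice 1 and 2 than in mice 3 and 4. Skeletal muscle markers were lower in mouse 1 in 13 of 13 genes, with a summed signal of 1392 in mouse 1 against 11087, 8052 and 10180 in mice 2 to 4. Bile duct markers were lower there in 6 of 6 (5 of 6 in the other scalings), with a summed signal of 417 in mouse 1 against 1252, 1222 and 1032. Exocrine pancreas markers were highest in mouse 2 in 10 of 10, with a summed signal of 7259 in mouse 2 against 2010, 2178 and 3158 in mice 1, 3 and 4. Macrophage markers were higher in mouse 3 in 9 of 9, or 6 of 9 with arrays shifted to the same median (summed signal 40841, against 32737, 32179 and 39012 in mice 1, 2 and 4). No marker was listed at 0. The 7 measured hepatocyte markers were higher than in the other mice in 3, 6, 0 and 4 of 7 in mice 1 to 4, with summed signals of 311033, 347865, 303001 and 323424, so that mouse 3 was higher in none of them, as in the core genes described next. The lowest of these markers was Cpa1, at 2.29 log2 in mouse 1. Without mouse 1, mouse 2 was higher than the mean of mice 3 and 4 in 25 of 35 members, mouse 3 than mice 2 and 4 in 15, and mouse 4 than mice 2 and 3 in 12.

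**Figure D3:**
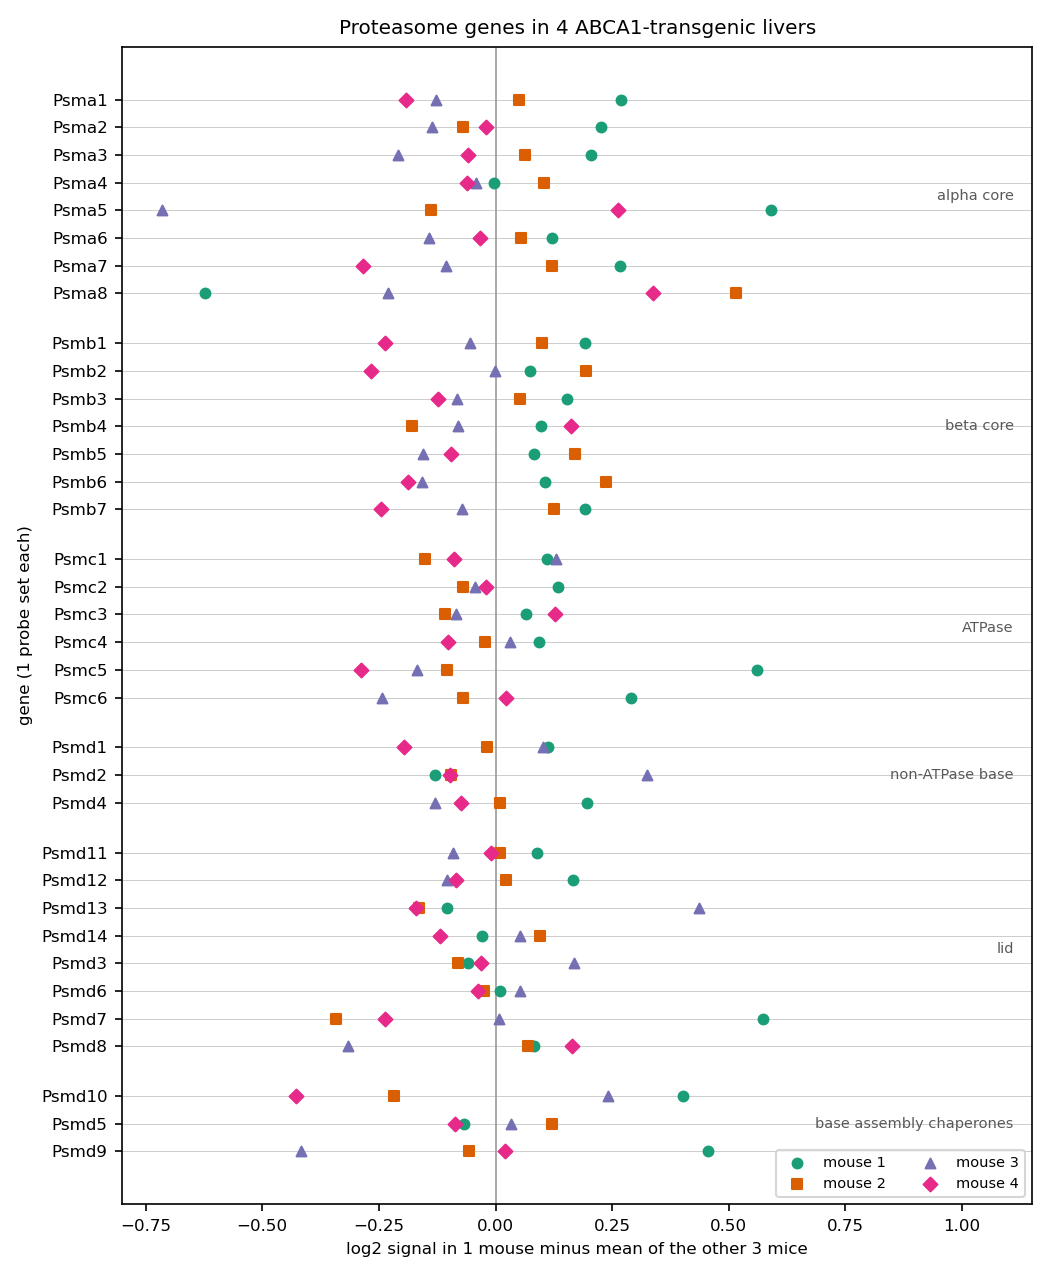
Each row is 1 proteasome gene, grouped by subcomplex, and each symbol is 1 mouse, placed by its log2 signal minus the mean of the other 3 mice (horizontal). As deposited, mouse 1 (circles) lies right of 0 in 28 of 35 rows. Mouse 3 (triangles) lies left of 0 in all 15 core rows. It lies right of 0 in 9 of the 17 rows of the ATPase, base and lid genes, against 59.8% of all genes. With arrays shifted to the same median (not shown), 4 of those 17 genes were higher in mouse 3, with a median of -0.11.

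The core genes lay low in mice 3 and 4. Of 15 alpha and beta genes, 0 were higher in mouse 3 than in the mean of the other 3 mice, against 59.8% of all genes, and the median difference was -0.13 log2. Mouse 1 was higher in 13 of 15 (median 0.15, against 42.8% of all genes). Mouse 2 was higher in 12 (median 0.10, against 57.9%) and mouse 4 in 3 (median -0.10, against 42.9%). Among genes with a mean log2 of at least 10 the shares were 45.5%, 50.2%, 50.7% and 54.5% in mice 1 to 4. With arrays shifted to the same median the counts were 14, 8, 0 and 9 in mice 1 to 4, so the position of mice 2 and 4 changed and that of mice 1 and 3 did not. The shares over all genes were not computed in that scaling, where the medians over all genes were 0.02, -0.03, -0.03 and 0.08. With quantile normalization 2 of 15 were higher in mouse 3, with the mean over a gene's probe sets 3 of 15, and without mouse 1 again 2 of 15. Without mouse 1, 6 of 15 were higher in mouse 4, so that count rests on mouse 1, and the median was -0.05 in mouse 3 and -0.08 in mouse 4. After quantile normalization it was -0.10 in mouse 3 and -0.13 in mouse 4, so which of these livers lay lower depended on the setting.

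The alpha genes build the outer rings of the core. Psma5 had the widest spread of all members, at 12.88, 12.33, 11.90 and 12.63 log2 in mice 1 to 4, so mouse 3 lay 0.71 below the other 3. Its relative spread was 2.61, with an unadjusted p of 0.034 and an adjusted p of 0.977 in limma's test. A second probe set of Psma5 measured 11.69, 11.64, 11.56 and 11.47, and the third, of low signal, 6.76, 5.87, 7.40 and 6.44. The order of the mice therefore differed between the probe sets of Psma5, and the low value of mouse 3 was seen on the first alone.

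Psma6 had the lowest p of the members in the test of probe set agreement. On all 4 of its probe sets mouse 1 was the highest and mouse 3 the lowest, with 13.14, 13.09, 12.94 and 13.02 log2 in mice 1 to 4 on the brightest and 12.67, 12.48, 12.30 and 12.35 on the next. The shared difference had an SD of 0.32 log2 over the 4 probe sets (unadjusted p = 0.012, adjusted p = 0.379, F-test with the variance moderated by limma). From the brightest probe set to the dimmest the SD was 0.09, 0.17, 0.47 and 0.66, at mean log2 of 13.05, 12.45, 8.26 and 5.40. The shared value thus rests largely on the dimmer probe sets. Psma4 was the steadiest alpha gene, at 12.70, 12.78, 12.67 and 12.66. Psma8, the testis form, gave a low signal of 6.44, 7.29, 6.73 and 7.16 log2, and it was the 1 core gene with its lowest level in mouse 1. The remaining alpha genes had means of 11.90 ± 0.15 for Psma1, 11.91 ± 0.12 for Psma2, 13.54 ± 0.13 for Psma3 and 11.88 ± 0.18 for Psma7 (log2, SD, n = 4), and each had its highest level in mouse 1.

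As deposited, the 3 catalytic beta genes shared 1 split of the mice with most other core genes. Psmb5, the chymotrypsin-like subunit, measured 12.56 and 12.63 log2 in mice 1 and 2 and 12.38 and 12.43 in mice 3 and 4. Psmb6, the caspase-like subunit, measured 12.01 and 12.11 in mice 1 and 2 and 11.82 and 11.79 in mice 3 and 4. Psmb7, the trypsin-like subunit, measured 13.59 and 13.54 in mice 1 and 2 and 13.39 and 13.26 in mice 3 and 4. In all 3 genes mice 1 and 2 lay above mice 3 and 4, by at most 1.18-fold, 1.25-fold and 1.25-fold between the highest and the lowest mouse. Each has 1 probe set, and their adjusted p lay between 0.98 and 0.991 in limma's test. The split was not particular to them, since Psmb1, Psmb2, Psmb3, Psma1, Psma3, Psma4, Psma6 and Psma7 also had it. Psma2, Psma5, Psma8 and Psmb4 did not. The split depends on the scaling. With arrays shifted to the same median, mouse 4 rises against mouse 2, and some of these genes do not keep the split. In that scaling mouse 2 was higher than the others in 8 and mouse 4 in 9 of the 15 core genes. The share of all genes with this split was not computed.

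Of the structural beta genes, Psmb1, Psmb2 and Psmb3 were lowest in mouse 4 as deposited, where the place of mouse 4 depends on the scaling. Psmb3 was the steadiest, at 12.54, 12.46, 12.36 and 12.33 log2 in mice 1 to 4, and Psmb1 measured 11.86 ± 0.14 and Psmb2 12.00 ± 0.15 (log2, SD, n = 4). Mouse 4 was the lowest on all 3 probe sets of Psmb1, including 8.60, 9.04, 8.78 and 8.36 in mice 1 to 4 on the second (unadjusted p = 0.034, adjusted p = 0.521, F-test on limma's moderated variance). Psmb4 differed from the rest, at 13.28, 13.07, 13.15 and 13.33, with mouse 4 the highest and mouse 2 the lowest of the livers. A second probe set of Psmb4 measured 11.54, 10.79, 11.17 and 11.44, again lowest in mouse 2 (unadjusted p = 0.038, adjusted p = 0.540).

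**Figure D4:**
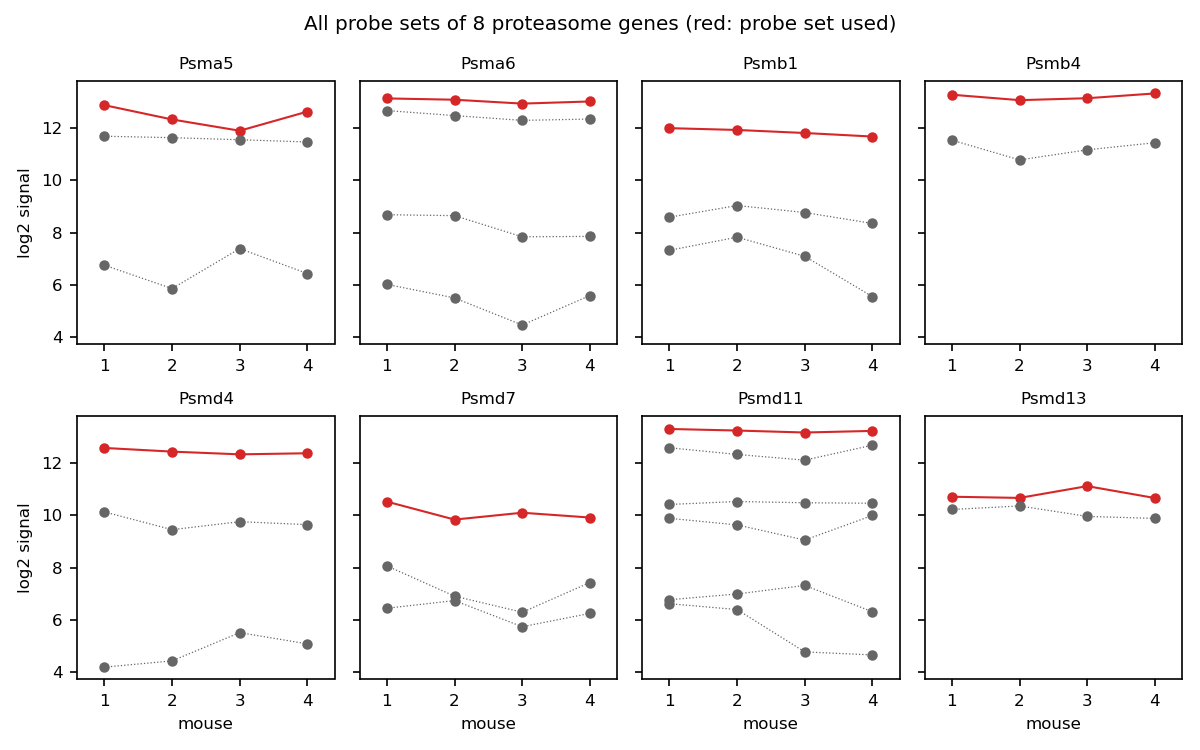
Log2 signal (vertical) in mice 1 to 4 (horizontal) for every probe set of 8 proteasome genes. Red points with solid lines are the probe set used for the gene and grey points with dotted lines the others; the 4 probe sets of Psma6 share their highest and lowest mouse, while those of Psma5 and Psmd13 do not.

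The ATPase genes stood apart from the core in mouse 2. All 6 were higher in mouse 1 than in the mean of the other 3 (against 42.8% of all genes) and 0 of 6 in mouse 2 (against 57.9%). Their median in mouse 2 was -0.09 log2, against 0.06 for the alpha and 0.13 for the beta genes. With arrays shifted to the same median these medians were -0.18, -0.03 and 0.03. The count of ATPase genes in mouse 2 was also 0 of 6 in that scaling. Without mouse 1 the count was 3 of 6, so it rests on mouse 1. The difference between subcomplexes was not tested. Psmc5 was the widest, at 11.53 in mouse 1 and 11.03, 10.98 and 10.89 in mice 2 to 4, so mouse 1 lay 0.56 log2 above the others (relative spread 1.59, adjusted p = 0.977, limma). Psmc6 measured 12.46, 12.19, 12.06 and 12.26 in mice 1 to 4, with mouse 1 the highest. Psmc4 was the steadiest ATPase gene, at 11.41, 11.32, 11.36 and 11.27. Psmc1, Psmc2 and Psmc3 had SDs of 0.11, 0.07 and 0.09 log2 around means of 11.75, 12.95 and 11.96.

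The base holds the scaffold genes Psmd1 and Psmd2 and the ubiquitin receptor Psmd4. Psmd2, which docks proteins that bring in ubiquitin-tagged cargo, measured 12.21 log2 in mouse 3 and 11.87, 11.89 and 11.89 in mice 1, 2 and 4. Mouse 3 was thus 0.32 above the other 3, the opposite of its place among core genes. Psmd1 measured 12.54, 12.44, 12.53 and 12.31 in mice 1 to 4, lowest in mouse 4. Psmd4 measured 12.58, 12.44, 12.33 and 12.37, with mouse 1 highest and mouse 3 lowest, and a second probe set of Psmd4 gave 10.13, 9.45, 9.76 and 9.64.

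The lid genes had the lowest median relative spread of the subcomplexes, at 0.51, with 0.56 for the ATPase, 0.67 for the non-ATPase base, 0.83 for the beta and 0.86 for the alpha genes. Psmd6, a scaffold of the lid, had the smallest spread of the members, at 13.12, 13.09, 13.15 and 13.08 log2 in mice 1 to 4, although a second probe set of Psmd6 measured 12.16, 11.70, 11.93 and 11.84. Psmd14, the deubiquitinase that removes ubiquitin chains at the mouth of the ATPase ring, measured 12.19, 12.28, 12.25 and 12.12. Psmd7, the partner that Psmd14 binds in the lid, was the widest, at 10.52 in mouse 1 and 9.84, 10.10 and 9.91 in mice 2 to 4. On a dimmer probe set of Psmd7 mouse 1 was also the highest, at 8.07 against 6.91, 6.29 and 7.43 while on the third, at 6.45, 6.74, 5.74 and 6.25 in mice 1 to 4, mouse 2 was the highest (all 3 probe sets together: unadjusted p = 0.089, adjusted p = 0.589).

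Psmd13, another lid scaffold, measured 11.12 in mouse 3 and 10.71, 10.67 and 10.66 log2 in mice 1, 2 and 4, which put mouse 3 at 0.44 above the others. Its second probe set did not have this order, with 9.96 in mouse 3 and 10.22, 10.36 and 9.88 in mice 1, 2 and 4. Psmd3 was also highest in mouse 3, at 10.30 ± 0.09 (log2, SD, n = 4). In contrast Psmd8 was lowest in mouse 3, 0.32 below the others, at 11.80 ± 0.16 (SD, n = 4). Psmd12 measured 12.39 ± 0.09 and Psmd11 13.23 ± 0.06 (log2, SD, n = 4). Psmd11 had 6 probe sets, and the second brightest measured 12.58, 12.33, 12.11 and 12.68 in mice 1 to 4, a wider spread than the first with mouse 3 lowest on both.

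The assembly chaperones of the base had a median relative spread of 0.998. Psmd10, also known as gankyrin, measured 8.48, 8.01, 8.36 and 7.85 log2 in mice 1 to 4, and Psmd9 measured 9.81, 9.43, 9.15 and 9.48. A second probe set of Psmd9 gave 8.53, 8.70, 8.75 and 8.11, without the high value of mouse 1. Psmd5 was steady, at 11.03, 11.17, 11.11 and 11.02. Leaving out these 3 genes and Psma8, a choice made after the data were seen, gave 26, 16, 9 and 5 of 31 members higher in mice 1 to 4.

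The 29 probe sets that were not used for a gene are a second reading of the same RNA. In these, mouse 1 was higher than the others in 22 of 29 (median 0.24 log2), mouse 2 in 14, mouse 3 in 12 and mouse 4 in 13. Among the 17 of them with a mean log2 of at least 8, mouse 1 was higher in 14 (median 0.29) and each of mice 2, 3 and 4 in 7. Mouse 1 was thus high on these probe sets as well, which read the same genes on the same arrays. The share over the unused probe sets of all genes was not computed. On the brightest probe sets, 42.8% of all genes were higher in mouse 1.

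The interferon-inducible counterparts were placed differently. Psmb10, which replaces Psmb7, measured 9.75, 10.76, 10.79 and 10.29 log2 in mice 1 to 4, lowest in mouse 1 (relative spread 2.54, unadjusted p = 0.038, adjusted p = 0.977, limma). Psmb9, which replaces Psmb6, measured 9.78, 9.91, 10.31 and 9.97, and Psmb8, which replaces Psmb5, 10.79, 10.95, 11.06 and 10.70. All 3 were highest in mouse 3, and 3 of 3 were higher there than in the other mice in each scaling (59.8% of all genes as deposited). Set against its own mean over the mice, Psmb7 minus Psmb10 was 0.79 log2 in mouse 1 and -0.45 in mouse 3, Psmb6 minus Psmb9 was 0.29 and -0.43, and Psmb5 minus Psmb8 was 0.15 and -0.30. These are differences of differences within each liver, with no replicate check.

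**Figure D5:**
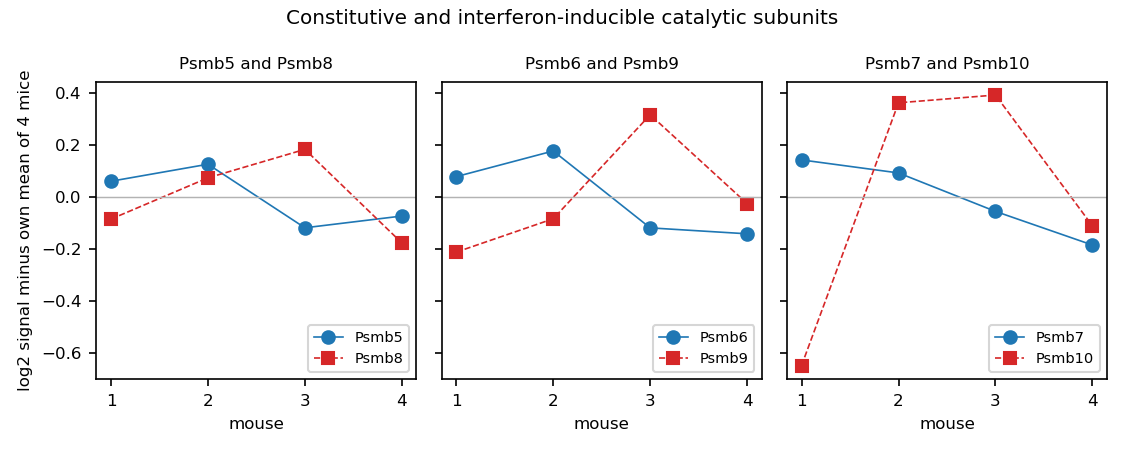
Log2 signal minus the gene's own mean of 4 mice (vertical) in mice 1 to 4 (horizontal) for the 3 pairs of a constitutive subunit (blue circles, solid lines) and its interferon-inducible counterpart (red squares, dashed lines). In mouse 1 each blue point lies above the red one and in mouse 3 below it, and the widest gap is that of Psmb7 over Psmb10 in mouse 1.

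Among other genes of the pathway, the immunoproteasome included, 0 of 29 passed the test of spread after adjustment, and 0 of the 15 with 2 or more probe sets passed the test of probe set agreement. At an unadjusted p under 0.05 were Psmb10 and the ubiquitin ligase gene Syvn1 in the test of spread (3.71% of all probe sets) and Psme4 in the test of probe set agreement (8.92% of genes). Of the core assembly chaperones, Pomp, the maturation factor of the core, measured 12.06, 11.78, 11.51 and 11.35 log2 in mice 1 to 4 (adjusted p = 0.977, limma, named after its values were seen). As deposited, mouse 1 was the highest and mouse 4 the lowest, as in Psmb1, Psmb3 and Psmb7. The place of mouse 4 in these genes depends on the scaling, since shifting the arrays to the same median raises mouse 4 against mouse 3. Psmg4 was the widest of the 5, at 8.82, 9.19, 9.18 and 8.26, and Psmg1 the steadiest, at 11.01 ± 0.06 (SD, n = 4). Sem1, a small subunit of the lid outside the Psm symbols, measured 10.43 in mouse 1 and 9.91, 9.86 and 9.75 in mice 2 to 4. It was the widest of the 5 cap-bound genes measured, and Uchl5, a deubiquitinase, was the steadiest at 10.68 ± 0.14 (SD, n = 4).

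Psme4, a nuclear activator of the core, measured 12.64 and 12.68 log2 in mice 1 and 4 and 12.24 and 12.29 in mice 2 and 3 (all 3 probe sets together: unadjusted p = 0.025, adjusted p = 0.477), and the inhibitor Psmf1 measured 10.23 ± 0.08 (SD, n = 4). The 4 shuttle receptors measured carry ubiquitin-tagged proteins to the cap. In mice 1 and 4, 4 of 4 were higher (42.8% and 42.9% of all genes), and in mice 2 and 3, 0 of 4 (57.9% and 59.8%). With the mean over all probe sets of a gene, these counts were 2, 3, 1 and 2 of 4 in mice 1 to 4, so they depend on the probe set. Ubqln2 was the widest, at 11.34, 10.61, 10.56 and 10.94 in mice 1 to 4, and Ubqln4 the steadiest, at 10.04 ± 0.10 (SD, n = 4).

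Nfe2l1 itself, the regulator named above, measured 10.83, 10.67, 10.56 and 10.73 log2 in mice 1 to 4, highest in mouse 1 and lowest in mouse 3 with a spread of 1.21-fold (adjusted p = 0.994, limma). Of the 8 genes of its axis that were measured, 6, 2, 2 and 6 were higher in mice 1 to 4. The shares over all genes were 42.8%, 57.9%, 59.8% and 42.9%. With the mean over probe sets the counts were 7, 3, 1 and 3 of 8. Ufd1, a partner of the Vcp segregase, was the widest, at 10.34, 9.70, 9.31 and 9.94 in mice 1 to 4, and Sel1l, the adaptor of an ER ubiquitin ligase, was the steadiest, at 10.75 ± 0.03 (SD, n = 4). None of the 6 listed ubiquitin and E1 genes was analysed here.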

How the data were processed

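Liver RNA of 4 ABCA1-transgenic mice was measured with 1 array each. Each sample was amplified by RiboAmp, per the labels' protocols, from 2 ug of RNA. The authors deposited 1 linear signal intensity per probe set. RMA is the tool named, with no version, per the submitters' processing notes, but the deposited values are linear, reach down to -3.32 on the log2 scale and share 1 trimmed mean, unlike usual RMA output, so how low signals were made is unknown. The trimmed mean (2% at each end) was 1000 on every array, and the median signal ran from 267 to 305. The log2 of each value was taken without a pseudocount, and 64 control probe sets were dropped. Gene names came from the platform annotation: of 22626 probe sets 20380 had 1 symbol, 691 several and 1555 none, and 0 symbols changed through Entrez identifiers.

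Excess spread between mice was tested in R 4.3.3 with limma 3.58.1: each variance was set against a robust prior that follows mean level, with 1 prior degree of freedom value (4.82) for all probe sets. The degrees of freedom that limma shrinks for outliers were not used, because on simulated data they hid excess spread. For genes with 2 or more probe sets, the shared difference between mice was tested against limma's moderated probe set disagreement with an F-test; it does not separate animal from array. Both were adjusted by the Benjamini-Hochberg method at 0.05 and tested on simulated data. The number of arrays limits the precision.

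Values of all mice are given for Psmb5, Psmb6, Psmb7, Psmd14 and Psmd4 and, per subgroup, for the 2 widest members and the steadiest by SD; in other lists the widest and the steadiest gene are named. Psma6, Psmb1, Psmb4, Pomp, Psmb9, Nfe2l1, Syvn1, Vcp and second probe sets were added after their values were seen. Members and lists were chosen with earlier results of these data known. Alternatives were quantile normalization, a shift to the same median, 2 treatments of low signals, leaving out probe sets that may bind several transcripts, other priors, other summaries and leaving out each mouse.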

Additional observations from a re-analysis of the deposited data

Results flagged for a closer look

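In groups of 4 livers, a value was singled out when its gap to the nearest other liver took up more of the whole range than the 95% critical value of Dixon's criterion allows, which chance does in about 1 in 20 genes. This was so in 2 of 35 proteasome genes and 1 of 29 other genes of the pathway, all in mouse 3. The share of 5.71% of proteasome genes is near the 5.91% of all 12393 genes, so the number of such values is no result about these genes. Psmd2 measured 12.21 log2 in mouse 3, with the gap at 0.92 of the range. Psmd13 measured 11.12 in mouse 3, with the gap at 0.89 of the range, and its second probe set had no such value. Vcp, the segregase that extracts ubiquitin-tagged proteins, measured 13.09 in mouse 3 and 13.22, 13.20 and 13.20 in mice 1, 2 and 4, with the gap at 0.86 of the range.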

How the results depend on the processing

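The count of proteasome genes past the spread test was 0 in each of 12 alternatives, with 0 or 1 at an unadjusted p under 0.05, and the count past the probe set agreement test was 0 in each of 10, with 0 to 5 unadjusted. In the main setting 0 of 22626 probe sets passed the spread test. The 13 skeletal muscle markers, with a median relative spread of 4.57, did not pass it either. A count of 0 in the spread test, though among the 296 values below, thus says little about stability. With arrays shifted to the same median, the proteasome median was -0.20 in mouse 3 and 0.054 in mouse 4, the ATPase median -0.18 and 0.086, the base median -0.013 and 0.042, and the lid median 0.11, -0.10, -0.086 and 0.080 in mice 1 to 4; this follows from moving every gene of an array by the same amount. With the mean over a gene's probe sets, the ATPase median of mouse 4 was 0.060, the base medians of mice 1 and 3 were -0.036 and 0.28, and the lid medians of mice 1 to 3 were 0.12, 0.047 and -0.031; the cause was not tested. With 1 mouse left out, the proteasome median stayed between 0.12 and 0.16 in mouse 1 and between -0.13 and -0.03 in mouse 3, and the lid median of mouse 3 ran from -0.034 (without mouse 4) to 0.055 (without mouse 1). The median relative spread was 0.89 without probe sets ending in _s_at or _x_at, 0.92 with means over probe sets, 0.42 with 1 prior for all levels, and from 0.62 to 0.77 with 1 mouse left out. The value over all genes, 0.96 in the main setting, is not given for these settings. Whether proteasome genes stayed below all genes there cannot be judged. Of 319 values under alternatives, 296 stayed within the spread between mice, or for counts within 1.5 times. Of the rest, 21 moved further and 2 changed sign. The 2 treatments of low signals left the medians of the list and of the core, ATPase, base and lid genes as they were. These medians could not change there, so their place among the 296 says nothing about stability. No paired analysis was possible because there is 1 group. Differences of about 0.1 log2 lie within the SD of most members, and 4 arrays cannot separate animal from array.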
